A study of Aliger gigas with 7 samples.

Results

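The EF-hand and other calcium-binding proteins of the queen conch ovary were followed as 29 gene titles, out of 4328 titles on the array. A title is the protein name that the authors attached to a conch sequence, often taken from a vertebrate, an insect, a fungus or a plant. The 29 are the titles that name calmodulin, an EF-hand, calcium binding, calpain, centrin, calumenin, copine or a calcium regulated protein, and are not kinases, phosphatases or calreticulin. Another 6 titles held these words and were left out, each of them a protein kinase. No title named a calcineurin subunit, calbindin, calcyclin, reticulocalbin, neurocalcin or S100 protein in these words.

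Ovary RNA came from 7 wild, mature adult queen conchs (Aliger gigas, formerly Strombus gigas), a large marine snail, with 1 animal per array. The 3 nearshore animals came from Tingler Island, where reproduction is impaired, and the 4 offshore animals from Pelican Shoal, where it is normal. The labels call the nearshore animals NF1 and NF3 normal females, while NM3 is an apparent imposex female, that is, a female with male sexual characters. The offshore animals OF1 to OF4 were labelled normal females, and no animal received a treatment. Each group came from 1 place, so place and collection cannot be told apart from reproductive state.

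An EF-hand is a short helix-loop-helix fold whose loop holds a calcium ion. Calmodulin carries several of them, changes shape when calcium rises and then binds kinases, phosphatases, channels and scaffold proteins. In many animals a rise of calcium in the egg at fertilization restarts meiosis and activates the egg. Centrins are EF-hand proteins of centrioles and basal bodies, calpains are proteases that calcium activates, and calumenin lies in the secretory pathway.

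Mean log2 signals of the arrays ran between 5.83 (NM3) and 5.89 (OF4). Vitellogenin 2, the yolk precursor that marks egg-forming ovary, had log2 signals of 12.69 in NF1, 17.03 in NF3 and 16.35 in NM3, against 16.81 to 17.34 offshore. NF1 was thus the only animal with a yolk signal under 16. The deposited table does not give the log base, which was read as 2, and it holds no background or detection values. Low signals may therefore lie at background, and signals of different titles were not ranked as amounts of RNA.

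The comparison asked in which calcium-binding titles nearshore ovaries differed from offshore ovaries. Calmodulin rose nearshore, and Centrin 1 and Calcium Regulated Heat Stable Protein 1 fell. In all, 4 of 29 titles (13.8%) passed an adjusted p of 0.05 in limma, against 9.24% of all titles. By direction, 2 rose, where 3.9% of all titles did, and 2 fell, where 5.34% of all titles did. The median log2 fold change over the 29 was 0.10, and -0.01 over all titles. The median size of the change, regardless of sign, was 0.76 for the 29 and 0.54 for all titles. At an unadjusted p under 0.05 there were 13 of 29 (44.8%), against 26.1% of all titles, 8 of them higher nearshore (11.6% of all titles) and 5 lower (14.5% of all titles). The groups did not overlap in 7 titles (24.1%), against 24.4% of all titles, so by that measure the share was near the background. Nearshore was the higher group in 5 of these 7 (10.9% of all titles) and the lower in 2 (13.5% of all titles). The calls depended on single animals. Without the imposex animal NM3 5 members passed (6.98% of all titles did), 2 passed without NF1, NF3, OF1 or OF2 (2.68%, 4.76%, 4.71% and 3.79% of all titles), and 0 passed without OF3 or without OF4 (0.97% and 0.786% of all titles). In these last fits limma gave 8 and 7 of the 29 members an unadjusted p under 0.05, and 914 and 896 of all 4328 titles. The forest plot shows the calmodulin titles mostly right of 0 and the centrins left of it.

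**Figure D1:**
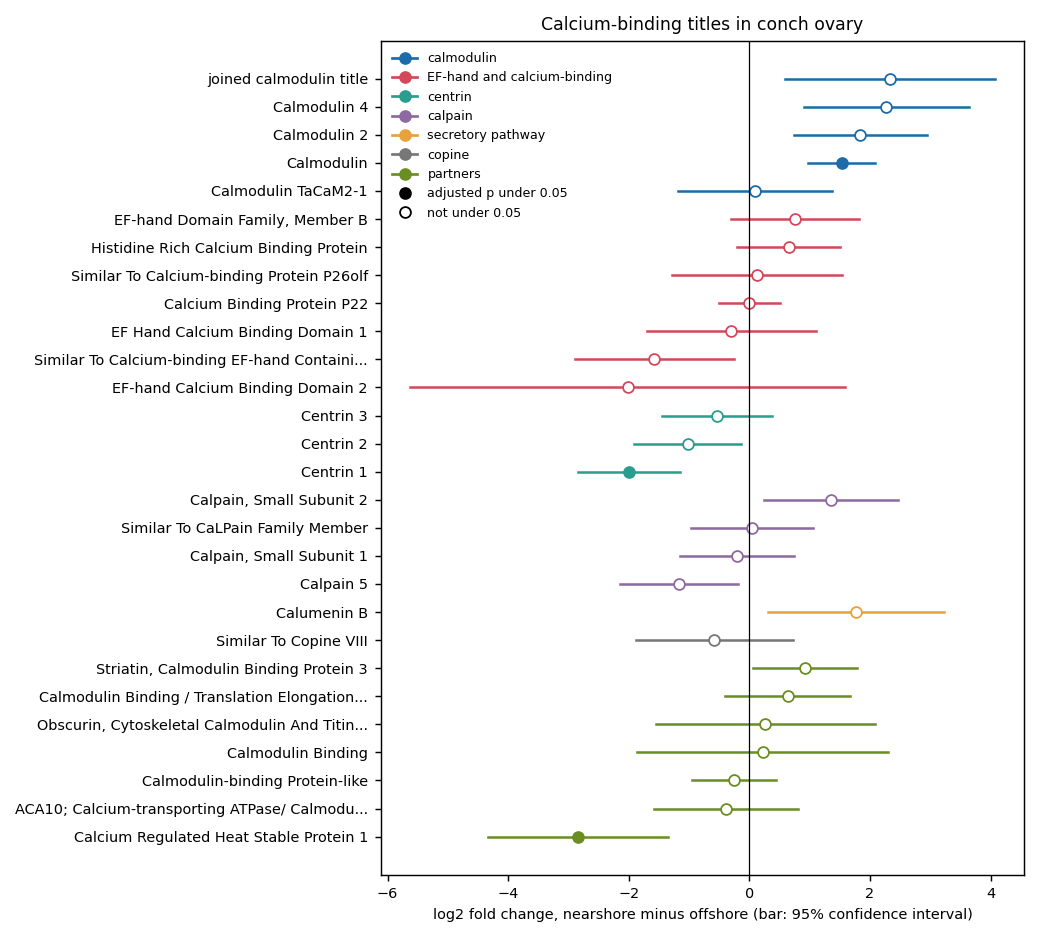
Log2 fold change (nearshore minus offshore, x axis) of 28 of the calcium-binding titles, coloured by role, with its 95% confidence interval from limma. Filled points passed an adjusted p of 0.05. The 3 filled points are Calmodulin (1.53), Centrin 1 (-1.99) and Calcium Regulated Heat Stable Protein 1 (-2.84).

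Of the 5 calmodulin titles, 1 rose (3.9% of all titles did). In 4 of the 5 the nearshore values all lay above the offshore values, as in 10.9% of all titles. The title Calmodulin had log2 signals of 14.82 in NF1, 14.58 in NF3 and 14.38 in NM3, against 13.32, 13.00, 12.83 and 13.10 in OF1, OF2, OF3 and OF4. The groups stood about 1 log2 unit apart at their nearest animals, NM3 and OF1. The means were 14.59 ± 0.22 nearshore (SD, n = 3) and 13.06 ± 0.21 offshore (SD, n = 4), a log2 fold change of 1.53 (adjusted p = 0.0173 in limma, SE 0.24), or 2.90-fold. Calmodulin passed in 5 of the 7 fits that left out 1 array, and its change ran from 1.42 to 1.64 over these fits. The exceptions were the fits without OF3 and without OF4, with adjusted p of 0.0597 and 0.0594.

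The other calmodulin titles were less certain. Calmodulin 2 had log2 signals of 11.89, 12.61 and 11.41 in NF1, NF3 and NM3, against 10.43, 9.10, 10.17 and 10.82 in OF1 to OF4. Its log2 fold change was 1.84 (adjusted p = 0.0557, SE 0.47), just outside the threshold. Calmodulin 4 had 8.78 in NF1, 8.19 in NF3 and 6.32 in NM3, against 5.94, 5.38, 4.95 and 5.70 in OF1 to OF4. In Calmodulin 4 the imposex animal thus lay within 1 log2 unit of the highest offshore animal, while both normal nearshore females stood well above. Its log2 fold change was 2.27 (adjusted p = 0.0557, SE 0.58), and 2.99 without NM3 (adjusted p = 0.0263). A title that joins fly, fungal and plant calmodulin names with Similar To Calmodulin 1 had 5.69, 8.43 and 6.55 in NF1, NF3 and NM3, against 5.65, 3.35, 4.62 and 4.58 in OF1 to OF4. NF1 and OF1 were nearly equal in this joined title, whose log2 fold change was 2.34 (adjusted p = 0.0996, SE 0.74).

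Whether these 4 titles stand for 1 conch gene or several is not known, and cross-hybridization between them was not tested. NF1 was the highest nearshore animal in Calmodulin and Calmodulin 4, and NF3 in Calmodulin 2 and the joined title. In Calmodulin NF1 and NF3 lay close together (14.82 and 14.58), and the order of the nearshore animals cannot tell 1 gene from several. The fifth title, named after the wheat calmodulin TaCaM2-1, was dim, with signals from 0.89 to 2.64, and showed a log2 fold change of 0.10 (95% interval -1.18 to 1.37).

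**Figure D2:**
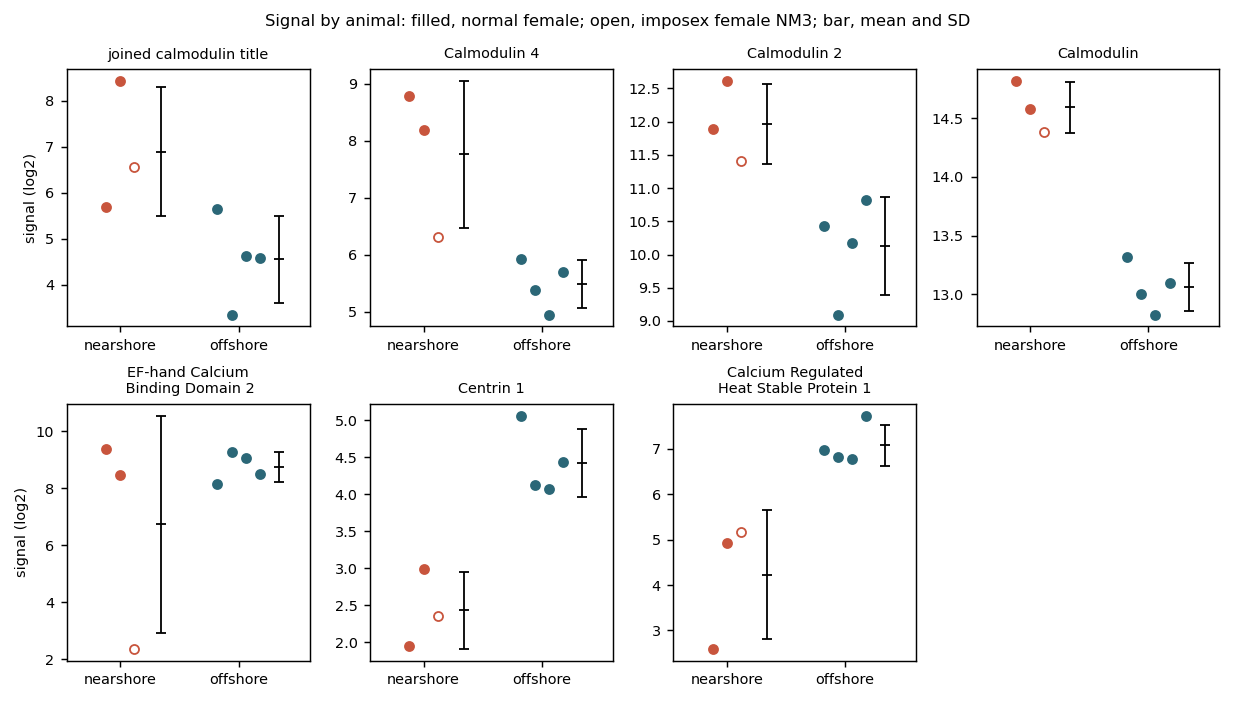
Log2 signal of each animal (y axis, its own range in each panel) for 6 titles whose groups did not overlap and for EF-hand Calcium Binding Domain 2, with nearshore left of offshore and the mean ± SD beside the points. In the 4 calmodulin titles the nearshore animals lie above the offshore animals, and in EF-hand Calcium Binding Domain 2 the open point of NM3 stands alone at 2.35.

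Among the titles with an EF-hand or calcium-binding name, Calcium Binding Protein P22, known in mammals as CHP1, a partner of sodium/proton exchangers, hardly varied. Its log2 signals were 11.63, 11.89 and 11.62 in NF1, NF3 and NM3, against 11.71, 11.59, 11.67 and 11.89 in OF1 to OF4. The 7 animals spanned 0.31 log2 units, and 97.6% of all titles had a wider span. The 95% interval of its log2 fold change ran from -0.51 to 0.50. It was named after its values were seen.

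EF-hand Calcium Binding Domain 2, known in mammals as a subunit of the dynein regulatory complex of cilia, set 1 animal apart and was also named after its values were seen. The log2 signal stood at 2.35 in the imposex animal NM3, against 9.36 in NF1, 8.47 in NF3, and 8.14, 9.28, 9.07 and 8.50 in OF1 to OF4. The gap between NM3 and the nearest other animal was 5.79 log2 units. Of all titles with an NM3 value, 3 had NM3 at least this far from every other animal with a value, this title included. Across sites the title showed a log2 fold change of -2.02 (adjusted p = 0.468, SE 1.55), and 0.17 without NM3 (adjusted p = 0.858). The NM3 array also stood apart over all titles: it lacked 45 values, against 0 to 3 on the other arrays, had the lowest array weight (0.52), and lay over 4 log2 units from every other animal in 9 titles, against 0 to 5 for the others. With 1 imposex animal there is no replicate of this value, and a failed spot was not tested.

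Other titles of this group did not pass. Similar To Calcium-binding EF-hand Containing Protein Precursor had signals of 2.62, 4.39 and 4.29 in NF1, NF3 and NM3, against 5.80, 4.26, 5.48 and 5.81 in OF1 to OF4 (log2 fold change -1.58, adjusted p = 0.130). OF2 lay among the nearshore animals. Histidine Rich Calcium Binding Protein, which in mammals lies in the sarcoplasmic reticulum of muscle and binds calcium without EF-hands, showed a log2 fold change of 0.65 (adjusted p = 0.315). EF-hand Domain Family, Member B had one of 0.76, EF Hand Calcium Binding Domain 1, a ciliary dynein protein in mammals, one of -0.30, and Similar To Calcium-binding Protein P26olf, an S100-like protein of frog olfactory epithelium, one of 0.12. The means of these last 3 over all animals lay below the table's median signal of 5.17.

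All 3 centrin titles had lower means nearshore, as did 2189 of all 4328 titles. Of the 3 centrins 1 fell, where 5.34% of all titles did. Centrin 1, which in mammals is found mainly in testis and ciliated cells, had log2 signals of 1.94 in NF1, 2.98 in NF3 and 2.36 in NM3, against 5.06, 4.12, 4.07 and 4.43 in OF1 to OF4. The groups did not overlap, and both lay below the table's median signal, and may be near background. The log2 fold change was -1.99 (adjusted p = 0.0234 in limma, SE 0.36), so the signal was 3.98-fold higher offshore. Centrin 1 passed in 4 of the 7 fits without 1 array and missed the threshold without NF1, OF3 or OF4, with changes from -2.27 to -1.75.

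Centrin 2, which also serves in DNA repair, had 8.59, 8.15 and 7.23 in NF1, NF3 and NM3, against 9.18, 8.53, 8.98 and 9.36 in OF1 to OF4. NF1 lay just above OF2, so the groups overlapped, and the log2 fold change of -1.02 (SE 0.38) had an adjusted p of 0.140. Centrin 3 had 10.51, 9.73 and 9.14 in NF1, NF3 and NM3, against 9.74, 10.59, 10.34 and 10.65 in OF1 to OF4 (log2 fold change -0.53, 95% interval -1.45 to 0.38). In Centrin 2 and Centrin 3 the imposex animal NM3 was the lowest of the 7 animals, and in Centrin 1 NF1 was. The plot of each animal against the offshore mean shows these rows.

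**Figure D3:**
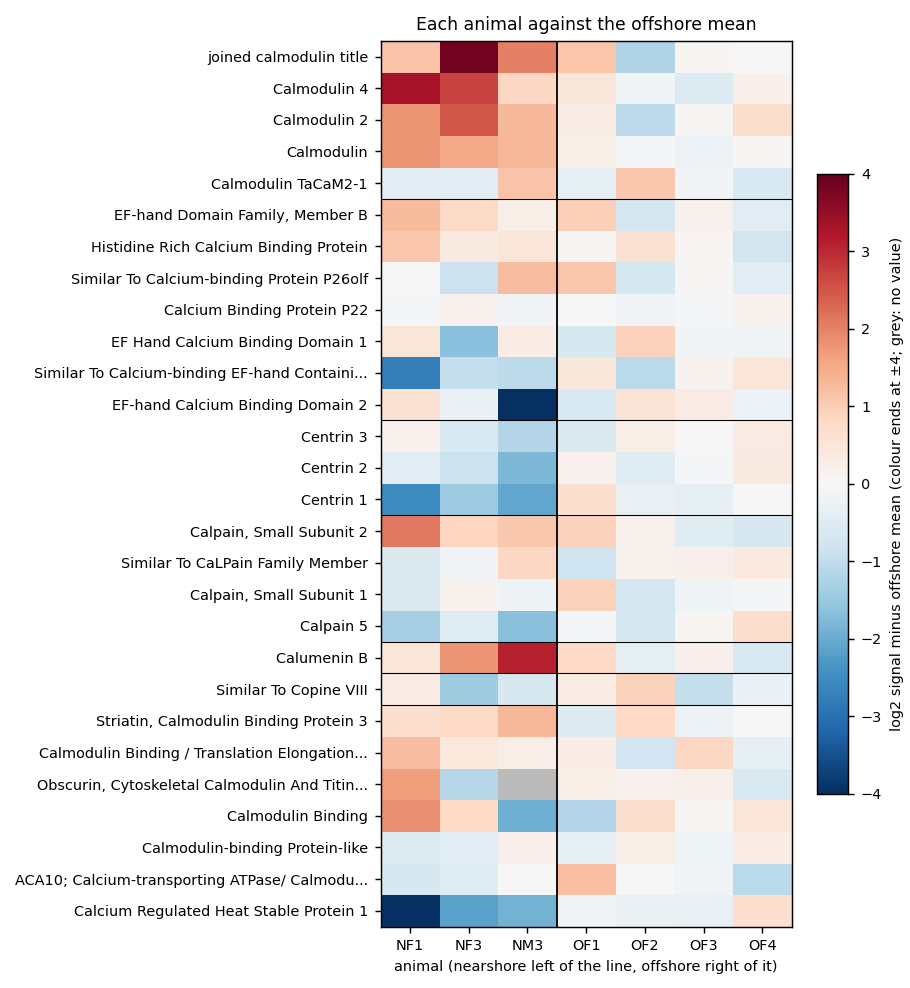
Log2 signal of each animal (columns) minus the offshore mean for 28 titles (rows, grouped by role), with red above and blue below that mean and grey for a missing value. The upper 4 calmodulin rows are red in NF1, NF3 and NM3, the Centrin 1 and Calcium Regulated Heat Stable Protein 1 rows are blue there, and EF-hand Calcium Binding Domain 2 is deep blue in NM3 alone.

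Of the 4 calpain titles 0 passed in limma, with all arrays (9.24% of all titles did) or in any of the 14 alternatives. With all arrays 2 had an unadjusted p under 0.05, 1 in each direction, as did 26.1% of all titles. Calpain, Small Subunit 2, a regulatory subunit with EF-hands, had log2 signals of 12.22, 10.97 and 11.21 in NF1, NF3 and NM3, against 11.04, 10.30, 9.65 and 9.49 in OF1 to OF4. OF1 lay just above NF3, and the log2 fold change was 1.35 (adjusted p = 0.124, SE 0.47). Calpain 5, a protease subunit that in mammals lacks the EF-hand domain, had 9.39, 10.22 and 9.04 in NF1, NF3 and NM3, against 10.67, 10.002, 10.79 and 11.40 in OF1 to OF4 (log2 fold change -1.17, SE 0.42, adjusted p = 0.130). Calpain, Small Subunit 1 and Similar To CaLPain Family Member were dim, with signals from 1.57 to 3.91, and had changes of -0.21 and 0.04.

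Calumenin B, an EF-hand protein of the endoplasmic reticulum and Golgi, had 3.73 in NF1, 4.99 in NF3 and 6.30 in NM3, against 4.02, 2.84, 3.45 and 2.62 in OF1 to OF4. NF1 lay below OF1, while NM3 stood highest, and the log2 fold change was 1.77 (adjusted p = 0.124, SE 0.63). Similar To Copine VIII, named for a family that binds membranes through C2 domains when calcium rises, had 7.18, 5.43 and 6.24 in NF1, NF3 and NM3, against 7.17, 7.77, 5.91 and 6.60 in OF1 to OF4. The groups overlapped widely, with a log2 fold change of -0.58 (95% interval -1.88 to 0.72).

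Of the 7 titles for proteins that bind calmodulin or respond to calcium, 1 fell and 0 rose. Of all titles, 5.34% fell and 3.9% rose. Calcium Regulated Heat Stable Protein 1, an mRNA-binding cold-shock protein that calcineurin dephosphorylates in mammals, had the largest change of the 29. Nearshore, NF1 had a log2 signal of 2.59, NF3 of 4.93 and NM3 of 5.17, against 6.97, 6.82, 6.77 and 7.73 in OF1 to OF4. All nearshore animals lay below the offshore range, and NF1 lay more than 2 log2 units below the other nearshore animals. The log2 fold change came to -2.84 (adjusted p = 0.0388 in limma, SE 0.64) and -2.02 without NF1 (adjusted p = 0.0469). It passed in 2 of the 7 fits without 1 array, those without NF1 and without NM3.

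Striatin, Calmodulin Binding Protein 3, a scaffold of a protein phosphatase complex, had 4.32, 4.46 and 5.002 in NF1, NF3 and NM3, against 3.14, 4.46, 3.42 and 3.64 in OF1 to OF4. OF2 reached the level of NF3, and the log2 fold change was 0.93 (adjusted p = 0.163, SE 0.37). Obscurin, Cytoskeletal Calmodulin And Titin-interacting RhoGEF, a giant protein of the sarcomere, had no value in NM3, and its fit rests on 6.61 in NF1 and 3.81 in NF3 (log2 fold change 0.26, 95% interval -1.56 to 2.08). The remaining titles were Calmodulin Binding, Calmodulin Binding / Translation Elongation Factor, Calmodulin-binding Protein-like and the plant calcium pump ACA10. Their changes lay between -0.39 and 0.63, with adjusted p from 0.422 to 0.909.

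Signal level went with the share of titles called. Of the 14 members above the table's median signal 3 passed (21.4%), against 14.9% of all such titles, and of the 15 below it 1 passed (6.67%), against 3.56%. The plot of signal against fold change shows the members below that median on both sides of 0, with Centrin 1 (-1.99) and Calumenin B (1.77) the farthest from it.

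**Figure D4:**
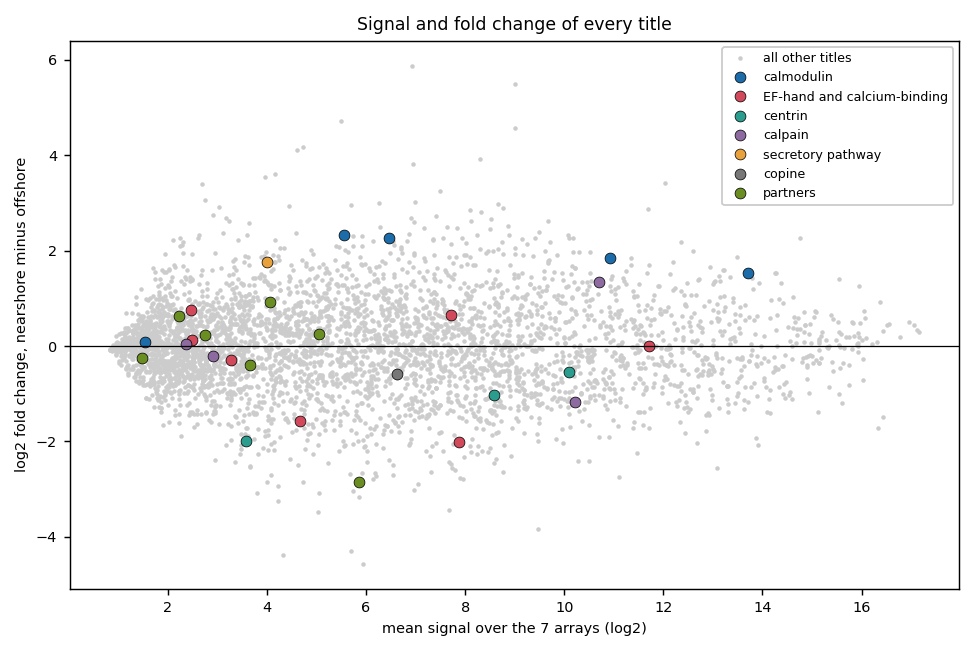
Log2 fold change (nearshore minus offshore, y axis) against mean log2 signal over the 7 arrays (x axis) for the titles outside the calcium-binding list in grey and 28 calcium-binding titles in colour by role. The brightest calmodulin point, the title Calmodulin, lies at a change of 1.53.

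The rest of the calcium pathway was taken as 51 other titles for pumps, channels, kinases, calcineurin, phospholipase C, annexins and further calcium sensors. Of these, 5 rose and 2 fell (13.7% called, against 9.24% of all titles), with a median log2 fold change of -0.03. At an unadjusted p under 0.05 there were 10 (19.6%, against 26.1% of all titles), and the groups did not overlap in 8 (15.7%, against 24.4%), so on these measures the share lay below that of all titles. Protein Phosphatase 3, Catalytic Subunit, Gamma Isoform, the catalytic subunit of the calmodulin-activated phosphatase calcineurin, had 7.33, 7.29 and 6.56 in NF1, NF3 and NM3, against 4.96, 5.42, 4.17 and 4.48 in OF1 to OF4. The groups did not overlap, and the title rose by 2.30 (adjusted p = 0.0178, SE 0.37). The other calcineurin titles of the list, the catalytic Alpha Isoform and Regulatory Subunit B, did not pass. Their log2 fold changes were 0.75 and 0.29 (adjusted p = 0.528 and 0.801 in limma). Phospholipase C, Beta 4, of the family that makes the messenger which releases calcium from internal stores, had 8.69, 8.18 and 9.01 in NF1, NF3 and NM3, against 6.84, 6.67, 6.13 and 5.94 in OF1 to OF4, and rose by 2.24 (adjusted p = 0.0173, SE 0.33). Phospholipase C, Beta 3 and Non-hemolytic Phospholipase C had changes of -0.41 and -0.02 (adjusted p = 0.568 and 0.972 in limma).

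The other rises were ENSANGP00000023757 / Myosin Light Chain (2.72), Ca2+-channel Protein 1 Subunit D (1.81) and Synaptotagmin XV (1.33). Each of these 3 passed in 1 of the 7 fits without 1 array, that without NM3. The myosin title is also counted in the muscle list below, and Synaptotagmin XV in the nerve list. Hippocalcin-like 1, a neuronal EF-hand sensor whose name the rule did not include, had 1.98, 1.57 and 2.72 in NF1, NF3 and NM3, against 3.79, 3.88, 3.30 and 3.93 in OF1 to OF4, with a log2 fold change of -1.64 (adjusted p = 0.0309, SE 0.33). The other fall was Protein Kinase C, Alpha Binding Protein (-2.11), a scaffold of membrane receptors. Phospholipase C, Beta 4 passed in 5 of the 7 fits without 1 array, the phosphatase title and Protein Kinase C, Alpha Binding Protein in 4 each, and Hippocalcin-like 1 in 1. None of these 7 titles passed without OF3 or without OF4. The 6 calmodulin-dependent kinase titles that the rule left out did not pass, and their changes ran from -1.23 for kinase I to 1.52 for kinase II, Delta. The search words also caught titles of 2 unrelated kinases and a sterol isomerase (Phenylalkylamine Ca2+ Antagonist Binding Protein), which did not pass in the fit of all 7 arrays.

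Lists of titles for other tissues were set beside these values. Of 8 muscle titles 3 rose and 0 fell (37.5% called, against 9.24% of all titles), 1 of the 3 a non-muscle myosin. Unadjusted p lay under 0.05 in 4 of the 8 (50%, against 26.1% of all titles), all 4 higher nearshore. Myosin Heavy Chain and Myosin Light Chain Cytoplasmic were at -0.80 and -1.16 nearshore minus offshore (adjusted p = 0.307 and 0.489 in limma). The muscle list's median relative to the offshore mean reached 1.18, 0.86 and 1.41 in NF1, NF3 and NM3, against -0.68 to 0.32 offshore. Of 14 oocyte and germ cell titles 0 rose and 2 fell (14.3% called), both cell division cycle titles. An unadjusted p under 0.05 in limma was found in 8 of the 14 (57.1%, against 26.1% of all titles), 2 higher and 6 lower nearshore. Bol, Boule-like was at 1.34 (adjusted p = 0.0804 in limma). The median of the germ cell list, on the same scale, was -0.83, -0.11 and -0.64 in NF1, NF3 and NM3, against -0.16 to 0.27 offshore, so NF3 lay inside the offshore range. Without OF3 the muscle list had 0 rises in limma and 4 titles with an unadjusted p under 0.05, and it had 1 rise in each fit that left out OF1, OF4, NF1 or NF3. The germ cell list had 0 falls, and 6 or 7 titles with an unadjusted p under 0.05, in each fit that left out NF1 or 1 offshore animal, and without NM3 it had 1 rise and 1 fall. Over all 4328 titles, the fits without 1 array called from 34 (without OF4) to 302 (without NM3). In these fits 896 (without OF4) to 1118 (without OF1) of all titles had an unadjusted p under 0.05. The lists of nerve (7 titles), haemocyte and immune (21 titles) and sperm and axoneme (57 titles) had medians from -0.33 to 0.38 nearshore, against -0.26 to 0.29 offshore. In limma 1 nerve title rose and 0 fell, 1 haemocyte title rose and 1 fell, and 2 sperm titles rose and 4 fell. The shares called were 14.3%, 9.52% and 10.5%. Without OF4 the nerve and sperm lists had 0 calls and the haemocyte list 1 rise, where 0.786% of all titles were called. Unadjusted p lay under 0.05 in 2, 13 and 4 of their titles in that fit, and in 896 of all 4328 titles. These lists were drawn by words in the titles and are mixed: the haemocyte list also caught DNA repair titles (Fanconi anemia, excision repair and X-ray repair groups) and plectins, the nerve list a synaptonemal complex protein of meiosis, and the sperm list polyamine enzymes and cytoplasmic dyneins. The part of muscle or germ cell content in the calmodulin, centrin and other differences was not tested. In whole ovary, fewer cells of a type and less RNA per cell cannot be told apart.

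**Figure D5:**
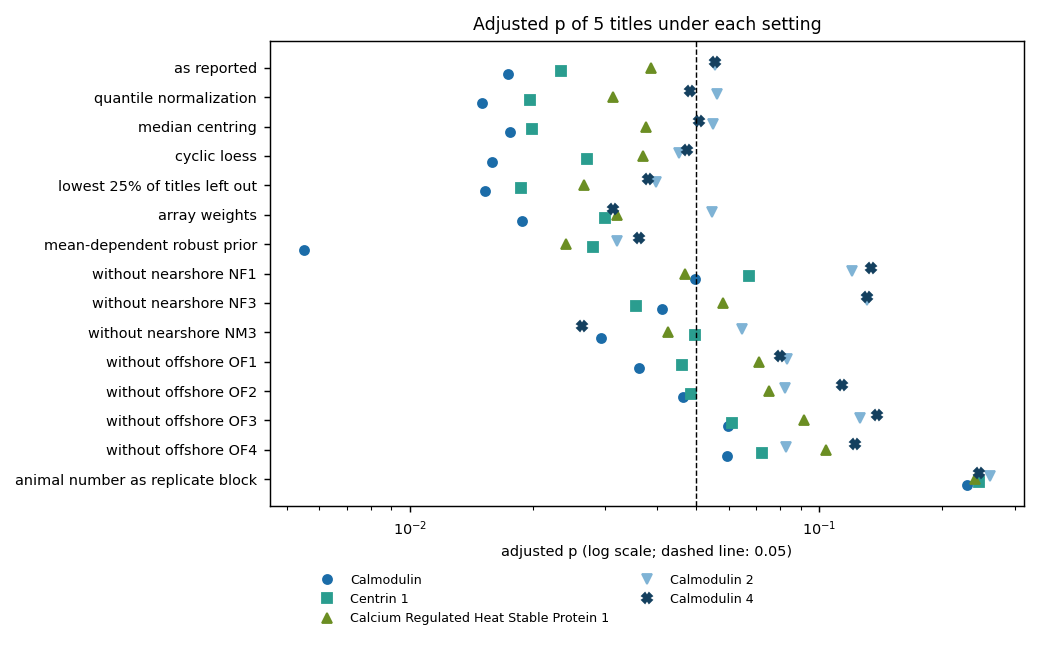
Adjusted p (x axis, log scale, dashed line at 0.05) of Calmodulin, Centrin 1, Calcium Regulated Heat Stable Protein 1, Calmodulin 2 and Calmodulin 4 under the reported fit and the 14 alternatives (y axis). All 5 titles lie right of the line without OF3, without OF4 and with the replicate block, and Calmodulin lies left of it under the other settings.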

How the data were processed

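Total RNA was labelled with Cy3 and hybridized to single-colour oligonucleotide arrays per the labels' protocols, and scanned into signals by Agilent Feature Extraction (no version stated), per the submitters' processing notes. The authors deposited 1 log2 value per gene title and array. The log base was read as 2 from the range of values, 0.27 to 17.53. The column means are nearly equal, so the values were used as normalized by the authors. The normalization, the background treatment and the condensing of probes are not stated there. The number of arrays limits the precision.

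All 4328 titles were fitted with limma 3.58.1 in R 4.3.3 (lmFit, eBayes) with site as the only factor. Two-sided p-values received a Benjamini-Hochberg adjustment over all titles, with a threshold of 0.05. The code was tested on simulated data. Of the 4328 titles, 53 lacked a value, 1 of them a member, and were fitted on the values present. No dim title was removed. Alternatives were quantile normalization, median centring, cyclic loess, leaving out the dimmest 25% of titles, array weights, a mean-dependent robust prior, leaving out each array, and the animal number as a block. The members, gene lists and naming rule were chosen with earlier results of these data known. Named are members with an adjusted or unadjusted p under 0.05, the brightest of each role, and called titles of the pathway list, with uncalled calcineurin and phospholipase C titles beside them. Other members are given by level, count or range. Sequences were not used here, and 1 member is counted but not reported here by name or value.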

Additional observations from a re-analysis of the deposited data

Results flagged for a closer look

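In 36 titles the 4 offshore animals were examined for 1 animal standing apart, by its gap to the nearest other divided by the group's range. Chance marks about 1 group in 20, and 2 of the 36 were marked. In Obscurin, Cytoskeletal Calmodulin And Titin-interacting RhoGEF the ratio was 0.934, with OF4 at 4.36 and the other offshore animals at 5.12 to 5.18. In ENSANGP00000023757 / Myosin Light Chain the ratio was 0.882, with OF4 at 4.93 and the others at 6.54 to 6.76. Both names belong to muscle, and OF4 also had the lowest median of the muscle list, -0.68. That median is not a separate observation, since the myosin title is 1 of the 8 titles in the list. Another of them, Myosin Light Chain Cytoplasmic, was highest in OF4 (6.13, against 4.03 to 4.97 in the other offshore animals). Only the offshore group was examined by this ratio, so the value of NM3 in EF-hand Calcium Binding Domain 2 was not examined this way.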

How the results depend on the processing

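Among the 29 members, the 2 rises became 4 after cyclic loess, without the dimmest 25% of titles or with the robust prior, where Calmodulin 2 and Calmodulin 4 joined. Over all titles the 169 rises also became more numerous there, with 184, 190 (of 3246 titles) and 187. With any 1 array left out, rises among members numbered 0 to 3 and falls 0 to 2, with 0 to 5 rises and 0 to 2 falls among the other calcium titles, and 14 to 147 rises and 20 to 155 falls among all titles, with fewer samples in each fit. The other calcium titles had 1 fall with the robust prior. Their median turned to -0.11 with array weights. Without 1 array the medians ran from 0.013 to 0.35 for members, -0.17 to -0.0090 for other calcium titles, -0.26 to 0.32 for binding partners and -0.020 to 0.50 for EF-hand titles. With the animal number as a replicate block, 0 members, 0 other calcium titles and 0 of all titles passed in limma, and 9, 9 and 669 had an unadjusted p under 0.05. The labels do not say that a number marks shared animals or days, and the deviations of same-numbered animals correlated at 0.01 (NF1 with OF1), -0.21 (NF3 with OF3) and 0.29 (NM3 with OF3) over 4275 titles. Between nearshore and offshore animals of different number the correlations ran from -0.28 (NM3 with OF4) to 0.34 (NF3 with OF4).

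The 4 called members kept their direction under all 14 alternatives. Titles that changed sign had values between -0.39 and 0.26 with all arrays, except EF-hand Calcium Binding Domain 2 (-2.02 with all arrays, 0.17 without NM3). Array weights gave 0.013 for Calcium Binding Protein P22, -0.0035 for Calmodulin TaCaM2-1, -0.033 for Similar To Calcium-binding Protein P26olf and -0.13 for Similar To CaLPain Family Member. Cyclic loess gave 0.080 for P22, and the block gave 0.012 for P22, 0.16 for EF Hand Calcium Binding Domain 1 and -0.39 for P26olf. Without 1 array, changes ran from -0.75 to 0.013 for ACA10, -0.092 to 0.056 for P22, -0.58 to 1.30 for Calmodulin Binding, -0.42 to 0.46 for TaCaM2-1, -0.44 to 0.092 for Calpain, Small Subunit 1, -0.69 to 0.38 for EF Hand Calcium Binding Domain 1, -3.34 to 0.17 for EF-hand Calcium Binding Domain 2, -1.14 to 1.66 for Obscurin, -0.43 to 0.62 for P26olf and -0.35 to 0.36 for the calpain family title. Causes were not tested.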
